A study of Homo sapiens with 6 samples.

Results

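The lysyl oxidase genes LOX, LOXL1, LOXL2, LOXL3 and LOXL4 and the lysyl hydroxylase genes PLOD1, PLOD2 and PLOD3 were followed in breast cancer cells under fluid flow. The members were the rows of the deposited count table that carry these 8 gene symbols, out of 60591 rows, and all 8 were among the 20676 genes that passed the expression filter. The cells were MDA-MB-231, an established human breast cancer line that lacks hormone receptors, in a form described as homing to bone, and they were loaded by fluid shear in a 3-dimensional model of mechanical loading in bone metastasis. All 6 libraries came from this variant and carried no other treatment: 2 without flow (static), 2 at 1 mL/min (low flow) and 2 at 15 mL/min (high flow). The duration of flow and the support the cells grew in are not given in the sources used here. The labels number the 2 libraries of a group as replicates without saying that they were separate cultures, and the p-values therefore reflect only how far these libraries spread, which may be technical.

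Collagen fibres gain strength from covalent bonds between lysine side chains, and the 8 genes encode the enzymes of the first steps. Lysyl hydroxylases act on procollagen chains inside the endoplasmic reticulum: PLOD1 hydroxylates lysines of the triple helix, PLOD2 those of the telopeptides, and PLOD3 also adds sugars to hydroxylysine. Lysyl oxidases are copper-dependent enzymes that act outside the cell, where they turn lysine and hydroxylysine into aldehydes that then form the bonds. LOX and LOXL1 are made as proenzymes, and LOXL2, LOXL3 and LOXL4 share scavenger receptor cysteine-rich domains. LOX, LOXL2, PLOD1 and PLOD2 are among the members known as targets of hypoxia-inducible factors. LOX and PLOD2 have been studied in bone metastasis and matrix stiffening in breast cancer.

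Promoter sequence was found in RefSeq on GRCh38.p14 for 7 of the 8 members: LOX, LOXL1, LOXL3, LOXL4, PLOD1, PLOD2 and PLOD3. The stretches before the starts of LOX, PLOD2, PLOD1 and LOXL4 are shown. The first 3 were chosen from the members named above as targets of hypoxia-inducible factors, a list that need not be complete. LOXL4 was chosen as the member with the largest fold differences, which says nothing on whether it is such a target. Each stretch runs 5′ to 3′ on the gene's own strand within the 250 bases before the RefSeq start. Each stops where an exon of the gene in GENCODE 29 begins. In GENCODE 29 the PLOD2 and PLOD1 stretches lie within the genes, whose 5′ ends are farther upstream, at 146163653 and 11934205. Capitals mark the core of the hypoxia response element, ACGTG or GCGTG, on either strand.
LOX (chr5:122078361-122078509, minus strand): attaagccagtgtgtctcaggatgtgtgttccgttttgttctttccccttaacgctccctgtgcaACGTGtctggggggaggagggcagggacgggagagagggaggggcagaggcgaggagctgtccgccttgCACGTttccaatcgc
PLOD2 (chr3:146161185-146161434, minus strand): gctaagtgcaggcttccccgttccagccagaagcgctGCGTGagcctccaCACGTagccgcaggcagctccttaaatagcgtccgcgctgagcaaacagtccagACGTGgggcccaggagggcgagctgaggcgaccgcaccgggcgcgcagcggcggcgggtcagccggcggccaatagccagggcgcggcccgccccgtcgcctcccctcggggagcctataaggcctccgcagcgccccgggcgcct
PLOD1 (chr1:11934467-11934693, plus strand): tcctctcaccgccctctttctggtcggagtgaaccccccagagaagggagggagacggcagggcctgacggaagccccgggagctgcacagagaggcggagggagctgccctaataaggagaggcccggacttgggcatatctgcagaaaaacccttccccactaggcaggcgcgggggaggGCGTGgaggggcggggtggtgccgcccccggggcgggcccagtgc
LOXL4 (chr10:98268251-98268444, minus strand): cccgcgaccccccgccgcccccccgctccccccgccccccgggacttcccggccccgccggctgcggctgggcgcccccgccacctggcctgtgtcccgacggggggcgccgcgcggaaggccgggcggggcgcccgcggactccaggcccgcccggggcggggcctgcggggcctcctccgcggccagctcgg

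Over the whole 250 bases before the start, the first LOX start had 4 core matches, all ACGTG, at 185, 116, 98 and 42 bases before the start. At least 4 such matches were present before 3.22% of the 35116 starts in the table. PLOD2 had 3 matches, at 213, 200 and 146 bases, a number reached by 7.76% of all starts. PLOD1 had 2, both GCGTG, and LOXL4 had none, while 43.2% of all starts had at least 1 match, with ACGTG before 18.5% and GCGTG before 32.2%. No window of these 4 held CACGTG, where the core would overlap an E-box. LOXL4 had 6 GC boxes (GGGCGG on either strand), a count that 2.22% of starts reached, and its window was 86.4% G and C. The TEAD motif GGAATG occurred at the first LOXL3 start alone among the members' starts, 2 times, against 11.9% of all starts with at least 1, and the AP-1 motif TGACTCA occurred at none of them, against 4.20%. The SMAD element CAGAC occurred once each before the first and second LOX starts, LOXL1 and PLOD2. It occurred 2 times before the third LOX start, whose window overlaps that of the second. Of all starts 38.0% had at least 1. These are letter matches, and the absence of a match says only that these letters are not in this window.

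Library totals ran from 17822642 to 53279537 counts, with both static libraries, at 17822642 and 23544307, shallower than the other 4, of which the lowest held 43965176. The column names place both high flow libraries in another lane than the static and low flow libraries, so a lane difference and a difference due to high flow cannot be told apart, and no lane holds both groups of such a comparison. Low flow and static libraries share a lane. CPM values are counts scaled to a common library size with TMM factors, and levels are compared between genes only as CPM per kilobase (kb) of exon. In such bulk libraries, fewer cells with a transcript and less transcript per cell cannot be told apart.

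PLOD1 was the most abundant member per length in every group and LOXL3 the least. In static cells the levels per length were 41.8 ± 1.40 CPM per kb for PLOD1 (SD, n = 2, as for all that follow), 30.7 ± 4.07 for LOXL2 and 21.5 ± 2.72 for PLOD2. PLOD3 followed at 14.3 ± 0.94 CPM per kb, LOX at 10.4 ± 0.33 and LOXL1 at 6.81 ± 0.53. LOXL4 at 0.76 ± 0.16 and LOXL3 at 0.39 ± 0.02 CPM per kb were more than an order of magnitude below LOX and LOXL2. No neighbours in this order overlapped in static or in high flow. Under high flow LOX, at 18.1 ± 1.68 CPM per kb, stood above PLOD3, at 15.8 ± 1.48. Under low flow LOX, at 18.6 ± 8.61, overlapped both PLOD2 and PLOD3. Among all tested genes PLOD1, LOXL2 and PLOD2 lay at percentiles 97.6, 96.3 and 95.7 of CPM, and LOXL4 and LOXL3 at 44.5 and 28.9.

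**Figure D1:**
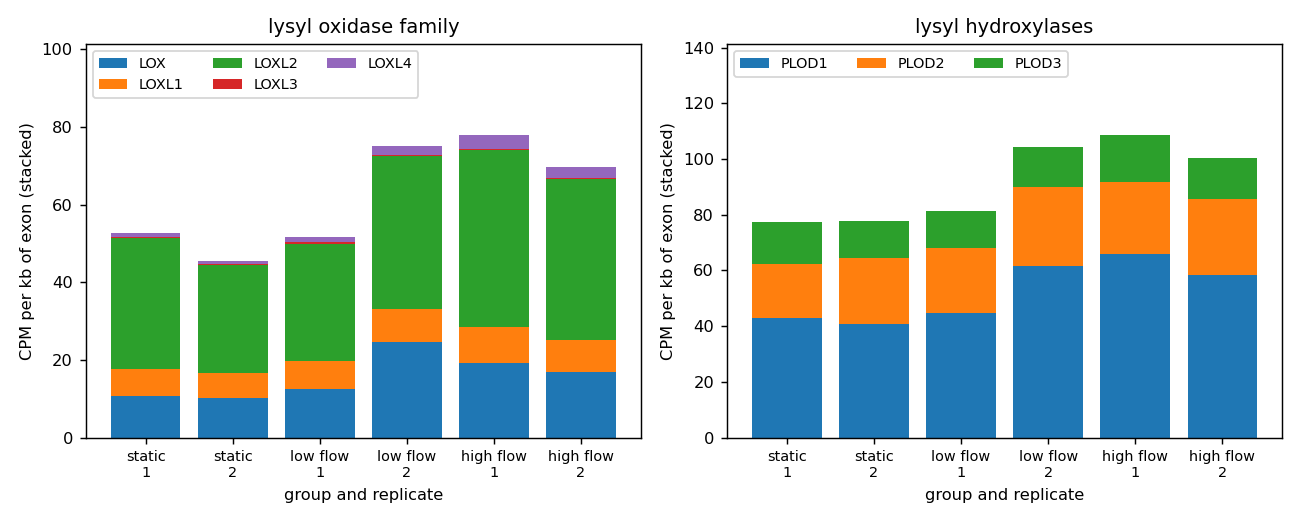
Stacked levels in CPM per kb of exon (linear axis from 0) of the lysyl oxidase family (left) and the lysyl hydroxylases (right) in each of the 6 libraries. The summed lysyl oxidase level was 45.4 and 52.6 CPM per kb in static, 51.8 and 75.2 under low flow and 78.0 and 69.5 under high flow, and LOXL2 held 52.3% to 63.8% of it in every library.

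Within the lysyl oxidase family, LOXL2 held the largest share of the summed level per length in all 6 libraries, 63.8% and 61.3% in static and 58.5% and 59.8% under high flow. The share of LOXL4 was 1.66% and 1.41% in static, 2.76% and 3.21% under low flow, and 4.66% and 3.79% under high flow. The share of LOX was 20.1% and 22.3% in static and 24.7% and 24.3% under high flow. In the second low flow library it reached 32.9%. Among the lysyl hydroxylases PLOD1 held 52.4% to 60.6% of the summed level, and PLOD3 held 19.3% and 17.5% in static against 15.5% and 14.7% under high flow. These shares are given without a test.

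LOXL4, an oxidase with scavenger receptor domains (chromosome 10, 98247690 to 98268250, minus strand), rose under both flow rates. It measured 3.20 and 2.35 CPM in the static libraries, 5.22 and 8.81 under low flow and 13.3 and 9.63 under high flow. The lowest library of each flow rate lay above the highest library of the rate below it, so no groups overlapped. Behind these values were 58 and 54 counts in static, 238 and 424 under low flow, and 567 and 513 under high flow. Against static, low flow gave a log2 fold change of 1.36 (SE 0.31, adjusted p = 0.0328 in edgeR's quasi-likelihood test), a 2.56-fold rise with a 95% interval of 1.59-fold to 4.13-fold. High flow gave 2.06 (SE 0.30, adjusted p = 0.00348), a 4.16-fold rise with an interval of 1.38 to 2.73 on the log2 scale. These fold changes stood at percentiles 98.9 and 99.6 of all tested genes. High flow against low flow gave 0.70 (SE 0.25), and this direct test did not pass (adjusted p = 0.415). It passed without low flow replicate 2, at 1.13 (adjusted p = 0.000197), and without the expression filter, at 0.71 (adjusted p = 0.00346), while without low flow replicate 1 it was 0.37 (adjusted p = 0.550) and without high flow replicate 1 0.46. The low flow call rested on both static libraries: the adjusted p was 0.111 without static replicate 1 and 0.289 without static replicate 2. The high flow call was lost without static replicate 2 (adjusted p = 0.101).

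**Figure D2:**
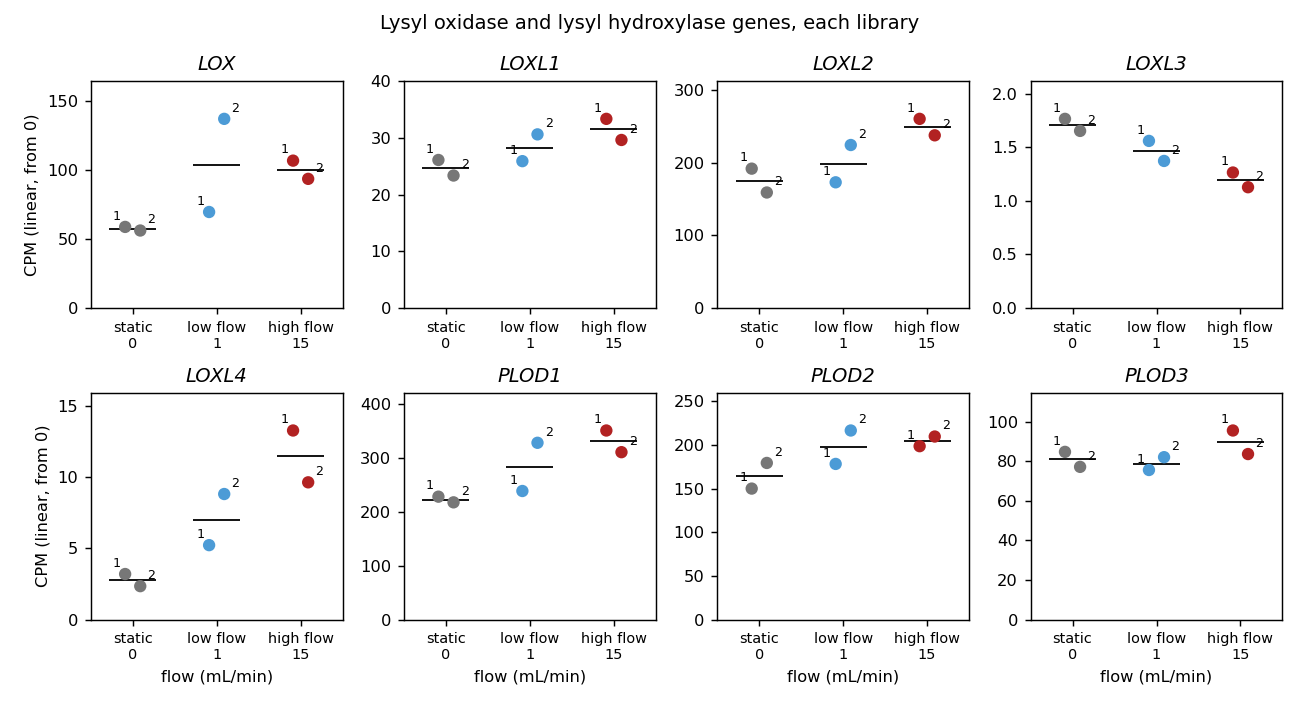
CPM of each gene (linear axis from 0, one scale per panel) in each library by flow rate in mL/min. Points are libraries with their replicate number, and bars are means of 2. LOXL4 went from 2.35 to 3.20 CPM in static to 9.63 to 13.3 under high flow, and LOXL3 from 1.65 to 1.76 down to 1.13 to 1.26.

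LOXL2, the most abundant lysyl oxidase here (chromosome 8, 23297189 to 23425328, minus strand), rose under high flow. It measured 192 and 159 CPM in static, 173 and 224 under low flow and 260.2 and 238 under high flow. The low flow libraries overlapped the static ones, and both high flow libraries lay above the other 4. High flow against static gave a log2 fold change of 0.51 (SE 0.13, adjusted p = 0.0178), or 1.42-fold with an interval of 1.18-fold to 1.71-fold. The call was lost without static replicate 2 (adjusted p = 0.194), or either high flow replicate (0.169 without 1, 0.0584 without 2), and with offsets for transcript length and GC content, where the log2 fold change was 0.32 (adjusted p = 0.0774). Low flow against static gave 0.18 (SE 0.13, adjusted p = 0.420), with an interval of -0.09 to 0.45. It passed without low flow replicate 1, at 0.36 (adjusted p = 0.0418), and was -0.02 without low flow replicate 2 (adjusted p = 0.974). LOXL2 shares 120 of its 5707 exon bases with ENTPD4 on the same strand (79.4 to 97.6 CPM), so a small part of its reads is uncertain.

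LOX, the founding member of the family (chromosome 5, 122063195 to 122078360, minus strand), was above static in all 4 flow libraries and did not pass the test. It measured 58.8 and 56.2 CPM in static, 69.6 and 137 under low flow and 107 and 93.6 under high flow. The 2 low flow libraries differed 1.97-fold from each other, the largest such ratio among the members, and bracketed both high flow values. Low flow against static gave a log2 fold change of 0.85 (SE 0.39, adjusted p = 0.317) with an interval of -0.29 to 1.98, and high flow 0.80 (SE 0.39, adjusted p = 0.285) with an interval of -0.33 to 1.94. The groups share one estimate of the spread. With only the 4 libraries compared, high flow against static passed at 0.80 (adjusted p = 8.77e-08), and it also passed without low flow replicate 1 (adjusted p = 3.28e-09) or without low flow replicate 2 (adjusted p = 3.93e-09). Low flow against static passed without low flow replicate 1, at 1.26 (adjusted p = 8.33e-14), where the remaining low flow library is assumed to vary like the other groups. It did not pass without low flow replicate 2, at 0.28 (adjusted p = 0.354).

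LOXL1, a lysyl oxidase that acts on elastin (chromosome 15, 73925989 to 73952137, plus strand), measured 26.1 and 23.4 CPM in static, 25.9 and 30.7 under low flow and 33.4 and 29.7 under high flow. The high flow libraries lay above static, with a log2 fold change of 0.35 (SE 0.12) that missed the threshold (adjusted p = 0.0573). It passed with only the 4 libraries compared (adjusted p = 0.0269), without the expression filter (0.0167) and without low flow replicate 1 or 2 (0.0247 and 0.0239). The other libraries left out in turn gave 0.27 to 0.43, none of which passed. The value was 0.06 when transcript length and GC content were offset (adjusted p = 0.742). LOXL3 (chromosome 2, 74532414 to 74555690, minus strand) was the member whose fitted values were below 0 in every comparison. It measured 1.76 and 1.65 CPM in static, 1.56 and 1.37 under low flow and 1.26 and 1.13 under high flow, from 32 to 71 counts a library. No groups overlapped, and no comparison passed: high flow against static gave -0.51 (SE 0.28, adjusted p = 0.232) with an interval of -1.10 to 0.07. On the opposite strand HTRA2, at 30.1 to 35.5 CPM, and DOK1, at 10.4 to 13.9 CPM, cover 14.3% and 4.95% of its exon bases. Genes nested in an opposite-strand gene had a median of 0.0113 of that gene's count density over 220 pairs, against 0.349 over 49 same-strand pairs.

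PLOD1, the hydroxylase of helical lysines (chromosome 1, 11934205 to 11975538, plus strand), rose under high flow. It measured 228 and 217 CPM in static, 238 and 328 under low flow and 350.4 and 310.3 under high flow. Every flow library lay above both static libraries, and the second low flow library lay between the 2 high flow libraries. High flow against static gave a log2 fold change of 0.57 (SE 0.13, adjusted p = 0.0119), or 1.48-fold with an interval of 1.22-fold to 1.80-fold. Low flow against static gave 0.35 (SE 0.13, adjusted p = 0.124), and it passed without low flow replicate 1, at 0.56 (adjusted p = 0.000585), and without the expression filter, at 0.38 (adjusted p = 0.00771). Without low flow replicate 2 it was 0.10 (adjusted p = 0.837). The high flow call was lost when static replicate 1 (adjusted p = 0.0761), static replicate 2 (0.175) or high flow replicate 1 (0.140) was left out. Offsets for length and GC content ended it too, at 0.38 (adjusted p = 0.0714).

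PLOD2, the telopeptide lysyl hydroxylase (chromosome 3, 146069440 to 146163653, minus strand), measured 150.1 and 179 CPM in static, 178 and 217 under low flow and 199 and 210 under high flow. The high flow pair lay above the static pair, and the low flow pair overlapped it by 1 library. The log2 fold changes were 0.26 (SE 0.11, adjusted p = 0.168) for low flow and 0.31 (SE 0.11, adjusted p = 0.0749) for high flow. High flow against static passed with only the 4 libraries compared (adjusted p = 0.0295), without the expression filter (0.0121) and without low flow replicate 1 or 2 (0.0243 and 0.0241). It also passed under the length and GC offsets, at 0.40 (adjusted p = 0.0181). It was 0.19 without static replicate 1 (adjusted p = 0.366), and it did not pass without static replicate 2 or either high flow library. Low flow against static passed without low flow replicate 1, at 0.40 (adjusted p = 0.0203), and was 0.11 without low flow replicate 2 (0.804) and 0.14 without static replicate 1 (0.567). PLOD3 (chromosome 7, 101205977 to 101218420, minus strand) measured 84.7 and 77.1 CPM in static, 75.5 and 82.0 under low flow and 95.5 and 83.6 under high flow. Static overlapped both flow groups, with log2 fold changes of -0.04 (interval -0.25 to 0.18) for low flow and 0.15 (interval -0.07 to 0.36) for high flow. Under the length and GC offsets its high flow value was -0.12 (adjusted p = 0.334).

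**Figure D3:**
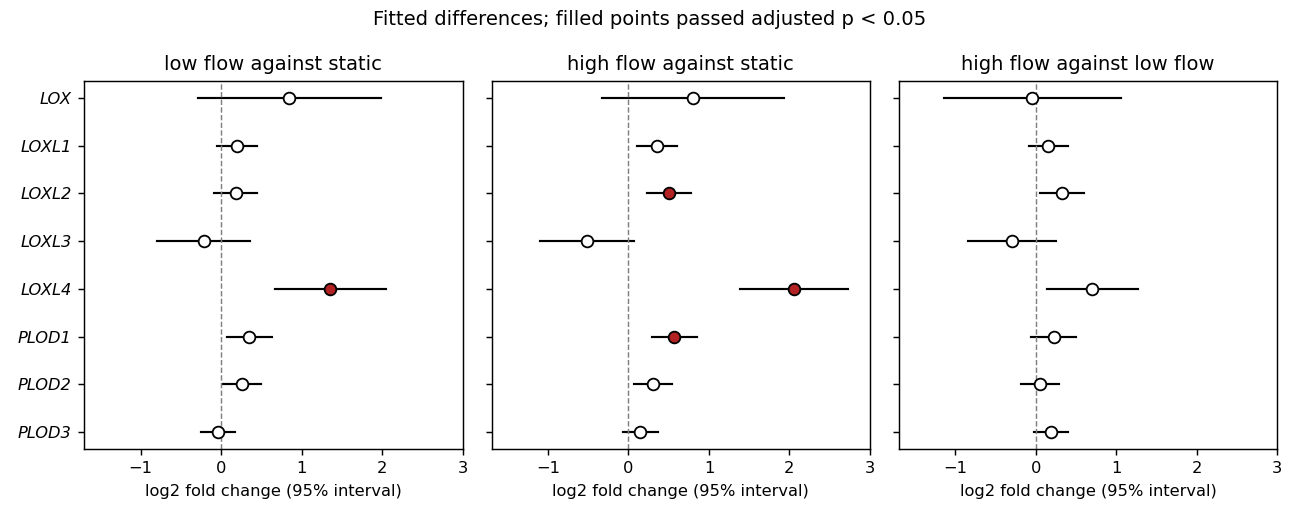
Log2 fold changes of the 8 genes in the 3 comparisons, with 95% intervals from edgeR's fit of all 6 libraries; filled points passed an adjusted p of 0.05. LOXL4 passed under both flow rates against static, LOXL2 and PLOD1 passed under high flow, and none passed between the flow rates.

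Under low flow 1 of the 8 members rose against static, LOXL4, and none fell. Of all tested genes 6.74% were called there, 3.25% higher and 3.49% lower. Under high flow 3 members rose, LOXL4, PLOD1 and LOXL2, and none fell, where 13.9% of all tested genes were called, 7.49% higher and 6.43% lower. The median log2 fold change of the 8 members was 0.23 under low flow and 0.43 under high flow, with medians of 0.01 and 0.00 over all tested genes. Both comparisons use the same static libraries, so their values are not independent. Under high flow 6 members lay above static in both libraries and 1 below, where 29.9% and 29.4% of all tested genes did so, and under low flow 3 lay above and 1 below, where the shares were 27.1% and 26.3%. Between the flow rates edgeR called none of the 8, where it called 0.334% of all tested genes, 0.242% higher and 0.0919% lower under high flow. In both high flow libraries 3 members lay above low flow and 1 below, where 21.2% and 21.5% of all tested genes did so. At an unadjusted p under 0.05 the members that differed there were LOXL4 and LOXL2, 2 of 8, where 9.62% of all tested genes did, and DESeq2 called 0. Against static 3 of 8 members were under that p with low flow and 5 of 8 with high flow, where 23.5% and 29.4% of all tested genes were. Between the flow rates PLOD1 gave 0.22 (interval -0.05 to 0.50), LOX -0.05 (interval -1.15 to 1.06) and PLOD2 0.05 (interval -0.19 to 0.28). The intervals leave room for differences in either direction for PLOD1, LOX and PLOD2.

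**Figure D4:**
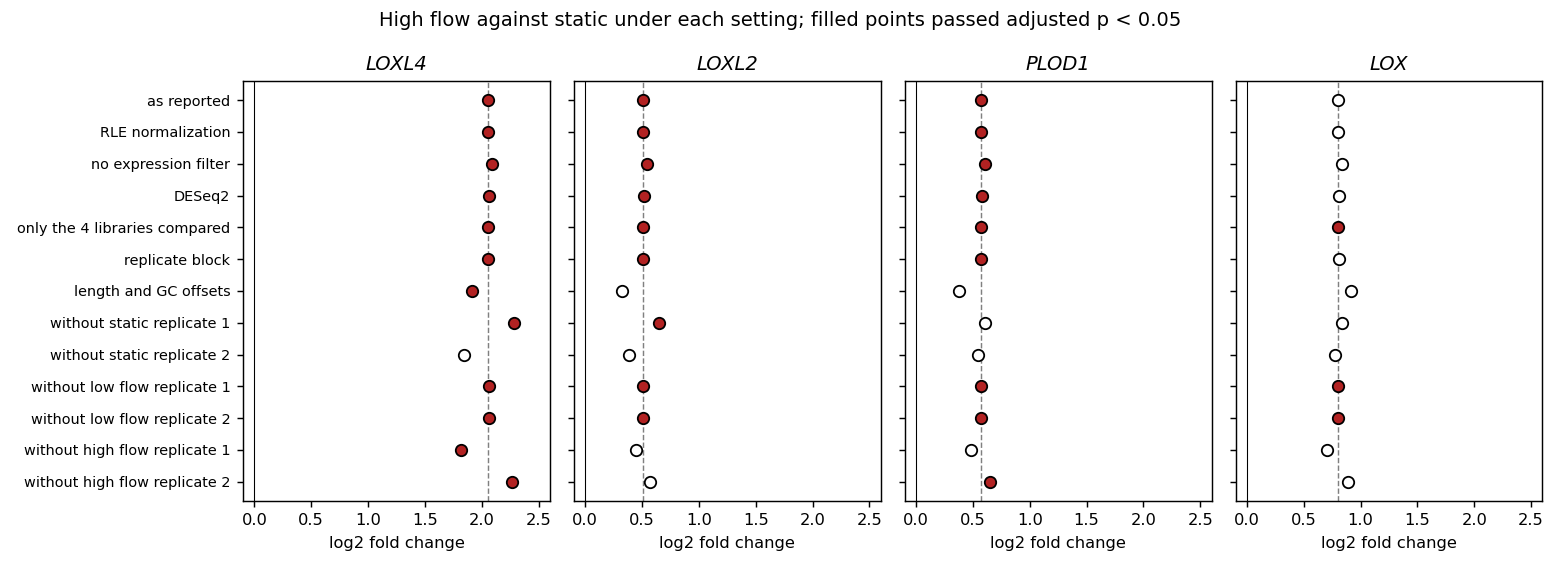
Log2 fold change of LOXL4, LOXL2, PLOD1 and LOX, high flow against static, as reported and under each of 12 other settings; filled points passed an adjusted p of 0.05, and the dashed line is the value as reported. LOXL4 passed under 11 of 12, LOXL2 and PLOD1 under 8 of 12, and LOX under 3 of 12, and all values stayed above 0.

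The 2 low flow libraries differed in most members. Of the 8, 7 were higher in the second low flow library than in the first, LOXL3 being the exception, where 50.2% of all tested genes were. LOX, LOXL4 and PLOD1 differed by 0.98, 0.75 and 0.46 on the log2 scale, at percentiles 98.7, 97.1 and 92.0 of all tested genes. Hypoxia-induced genes, a list of 16 such as carbonic anhydrase CA9 and the stress-responsive NDRG1, were higher there in 13 of 16. CA9 was 38.2 and 24.6 CPM in static, 42.2 and 101 under low flow and 118 and 99.4 under high flow. NDRG1 was 457 and 392 CPM in static, 564 and 1624 under low flow and 1531 and 1139 under high flow. Both thus resembled LOX in that 1 low flow library lay near static and the other near high flow. In edgeR's fit of all 6 libraries neither passed against static. The adjusted p was 0.350 and 0.333 under low flow and 0.168 and 0.219 under high flow. For high flow each passed under 4 of the 12 other settings, among them DESeq2 and only the 4 libraries compared. For low flow each passed under 1, without low flow replicate 1. Whether this difference between the low flow libraries has a part in the members' results was not tested.

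The 16 hypoxia-induced genes moved in both directions. Under high flow 5 rose and 3 fell, with a median log2 fold change of 0.70, where 7.49% of all tested genes rose and 6.43% fell. Under low flow 2 rose and 3 fell, with a median of 0.35, where 3.25% of all tested genes rose and 3.49% fell. DESeq2 called 7 higher and 3 lower under high flow, and 4 higher and 3 lower under low flow. The DESeq2 share over all genes is not given here. The lipase inhibitor ANGPTL4 rose 1.56-fold under low flow (adjusted p = 0.00487) and 2.34-fold under high flow (4.47e-06), and the transcription factor BHLHE40 rose 1.81-fold under high flow. HILPDA, a lipid droplet protein, fell 2.26-fold under low flow and 2.92-fold under high flow, and DDIT4, an mTORC1 inhibitor, fell 1.88-fold and 2.82-fold. ANKRD37 fell 2.25-fold under low flow. Between the flow rates ANGPTL4 (log2 fold change 0.58) and BHLHE40 (0.62) rose and DDIT4 (-0.59) fell, and these 3 calls ended without high flow replicate 1 and without high flow replicate 2. Those of ANGPTL4 and BHLHE40 also ended with only the 4 libraries compared and with the length and GC offsets. That of BHLHE40 ended without static replicate 2 too. The ANGPTL4 call under low flow ended without static replicate 2 (adjusted p = 0.0845).

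TGF-beta response genes, a list of 15, had 4 higher and 1 lower under low flow and 10 higher and 1 lower under high flow, with medians of 0.23 and 0.53. SMAD7, a feedback inhibitor of the pathway, rose 1.94-fold (adjusted p = 0.0287) and 3.34-fold (0.00209), and its call ended without static replicate 2 in both comparisons and under low flow also without static replicate 1 and with the length and GC offsets. CCN2, a matricellular protein, rose 2.09-fold against static and 1.99-fold against low flow. ID3 and TGIF1 rose 1.56-fold and 1.42-fold under low flow, and ID2, an inhibitor of differentiation, fell 2.63-fold under low flow and 2.97-fold under high flow. Apart from CCN2 against static, each call named for this list ended without static replicate 2.

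Among the matrix proteins that lysyl oxidases bind or act on, 3 of 8 tested rose under low flow, and 4 rose and 1 fell under high flow. Of all tested genes 3.25% rose under low flow, and 7.49% rose and 6.43% fell under high flow. FBN2, which encodes a microfibril protein, rose 3.80-fold and 3.36-fold, and fibronectin gene FN1 rose 1.85-fold (adjusted p = 0.0299) and 2.01-fold (0.0109). FBN1 rose 1.37-fold under low flow, and THBS1, thrombospondin 1, rose 2.31-fold under high flow and 1.73-fold between the flow rates. The FBN2 calls and the THBS1 call against static passed under all 12 other settings. The THBS1 call between the flow rates ended with only the 4 libraries compared (adjusted p = 0.0848) and with either static or either high flow library left out (up to 0.251). The calls of FN1 and FBN1 ended with either static library left out. ELN, the elastin gene, fell under high flow from 1.71 to 0.36 CPM (adjusted p = 0.0191), a call that ended when either static library or high flow replicate 1 was left out. Of 6 tested fibrillar collagens COL1A1 rose in all 3 comparisons, from 12.2 ± 0.74 CPM in static to 20.1 ± 3.12 under low flow and 41.5 ± 4.98 under high flow. COL5A1 rose 1.77-fold under high flow, from 129 ± 7.73 to 228 ± 19.5 CPM, and its call ended with either static library or high flow replicate 1 left out and with the offsets. The COL1A1 call passed throughout for high flow against static, ended with either static library left out for low flow (highest adjusted p = 0.0735) and ended without high flow replicate 1 between the flow rates (0.0568). The other 4 did not pass in any comparison, and the median of the 6 was -0.37 under low flow and -0.19 under high flow.

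Among partners of the lysyl hydroxylases and collagen glycosylation enzymes SERPINH1, the collagen chaperone HSP47, was the 1 of 8 that rose, under high flow, with a log2 fold change of 0.37 (adjusted p = 0.0391). FKBP10, a chaperone that assists PLOD2, was 204 ± 12.3 CPM in static and 227 ± 2.36 under high flow (log2 fold change 0.15, adjusted p = 0.311). Of 6 tested collagen prolyl hydroxylase genes edgeR called 0 in any comparison and DESeq2 also 0, with 0, 2 and 0 at an unadjusted p under 0.05 for low flow, high flow and between the rates. P4HA1, a catalytic subunit of prolyl 4-hydroxylase, was 114 ± 0.48 CPM in static, 156 ± 51.4 under low flow and 165 ± 0.86 under high flow (adjusted p = 0.254 and 0.146 against static). Its low flow spread resembled that of LOX. BMP1, the protease that cleaves procollagen and the LOX proenzyme, rose 1.32-fold under high flow (adjusted p = 0.0152), and the proprotein convertase FURIN rose 1.37-fold (0.0208). PCOLCE2, which enhances procollagen cleavage, fell 1.43-fold under low flow and 1.40-fold under high flow (adjusted p = 0.0498 and 0.0393). Of 6 copper supply genes, among them the copper pump ATP7A that loads lysyl oxidases, edgeR called 0 in any comparison. At an unadjusted p under 0.05 there were 4, 2 and 0, where 23.5%, 29.4% and 9.62% of all tested genes were. DESeq2 called 1 lower under low flow. Of all tested genes edgeR called 6.74%, 13.9% and 0.334% for low flow, high flow and between the rates. TGM2, a transglutaminase that cross-links matrix by another reaction, fell by 0.38 on the log2 scale under high flow, the 1 of 3 tested transglutaminases that passed. The calls of SERPINH1, BMP1, FURIN, PCOLCE2 and TGM2 each ended without high flow replicate 1 for high flow against static, and all but that of TGM2 without static replicate 2. With the length and GC offsets those of SERPINH1 (0.21, adjusted p = 0.176), BMP1 (0.13, 0.330) and FURIN (0.21, 0.146) ended as well. That of PCOLCE2 under low flow ended under 9 of the 12 other settings. Under high flow the PCOLCE2 call passed under 5 of the 12, and DESeq2 and no expression filter were among those where it ended. Of 38 calls of named companion genes over all lists, 12 passed under every other setting.

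**Figure D5:**
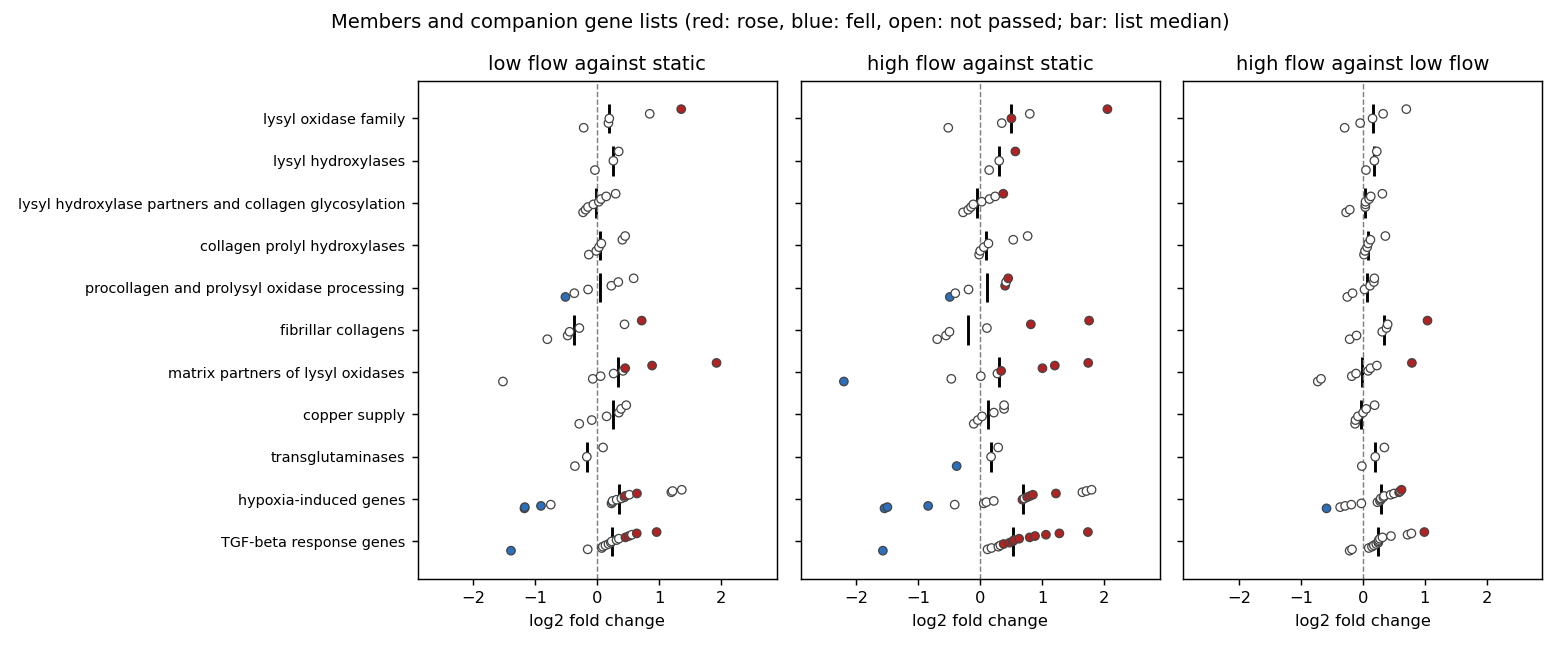
Log2 fold change of each tested gene of the 2 enzyme families and of 9 companion lists in the 3 comparisons; red points rose, blue points fell, open points did not pass, and black bars are list medians. The hypoxia-induced, TGF-beta response, fibrillar collagen and matrix partner lists have passing genes in all 3 comparisons, and the collagen prolyl hydroxylases and the copper supply genes have none.

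The genes most like LOXL4 were found by the root mean square difference between mean-centred log2 CPM over the 6 libraries, among 11671 other genes whose mean reached 4 CPM. The 5 closest were the integrin subunit ITGB4 (0.18), CA9 (0.19), FIBCD1 (0.25), the adhesion molecule L1CAM (0.28) and NDRG1 (0.28), on the log2 scale. LOXL4 itself ranged over 2.47 on that scale. ITGB4 was 12.7 and 11.9 CPM in static, 19.1 and 42.6 under low flow and 53.3 and 47.1 under high flow. The genes closest to PLOD1, which ranged over 0.69, were IGSF3 (0.02), RDH13 (0.04), APCDD1L-DT (0.05), SLC25A23 (0.05) and the actin-severing protein GSN (0.05). These likenesses rest on 6 libraries in 3 groups and are descriptions.

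The GC content of the members' longest transcripts ran from 34.4% in PLOD2 to 67.6% in LOXL1, and the length and GC offsets raised the high flow values of the 2 members with the lowest GC content and lowered those of the other 6. Against static, the offsets raised the log2 fold change of PLOD2 by 0.09 and that of LOX (39.6% GC) by 0.11. They lowered LOXL4 (57.7% GC) from 2.06 to 1.92 (adjusted p = 0.00554), and PLOD3 (61.8% GC) and LOXL1 by more than 0.2. Under low flow the LOXL4 value was 1.33 with the offsets (adjusted p = 0.0242). Over 19604 tested genes, log2 fold change and GC content had a Spearman correlation of 0.06 for low flow against static. It was 0.31 for high flow against static and 0.45 for high flow against low flow, the comparisons across lanes. The cause of this trend was not tested.

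Markers of other cell types ranged from 0 to levels above those of LOXL4. The cell type given in the labels contains the word endothelial, and of 8 endothelial markers CDH5, CLDN5 and VWF were at 0 to 0.22 CPM in every library, while TIE1 (29.9 to 44.2 CPM) and PECAM1 (8.32 to 14.1 CPM) were measurable. PECAM1 rose against static, 1.62-fold under low flow (adjusted p = 0.00778) and 1.47-fold under high flow (0.0139), and KDR and ERG fell under high flow, both from under 2 CPM. DESeq2 called 0 endothelial markers lower under high flow against static. The summed endothelial list was 41.3 to 50.7 CPM in static, 51.9 to 59.2 under low flow and 54.6 to 57.3 under high flow. Of 8 fibroblast markers, COL1A2 and THY1 were at 0 counts in static, and the summed level was 3.96 to 5.18 CPM in static, 4.92 to 5.26 under low flow and 5.61 to 5.80 under high flow, nearly all of it PDGFRB (3.26 to 5.34 CPM). Of 7 osteoblast markers IBSP was at 0 in every library, and the sums were 3.65 to 5.02, 4.68 to 6.01 and 4.90 to 5.45 CPM in the same order. The leukocyte list was 261 to 342 CPM over all libraries through CD68, with PTPRC at 0 to 0.17 CPM. Of 7 markers of this mesenchymal-like line, VIM and CD44 were at 3618 to 5031 and 923 to 1053 CPM. The lowest of the 7 was S100A4, at 1.56 to 3.27 CPM. PGR was at 0 in every library. The luminal epithelial list, mainly KRT18 and KRT8, summed to 335 to 364 CPM in static, 428 to 435 under low flow and 451 to 509 under high flow. KRT18 rose 1.26-fold under low flow (adjusted p = 0.0431) and 1.33-fold under high flow (0.00916), and KRT8 rose 1.33-fold under high flow (0.0126). Of the leukocyte list ITGAM fell under high flow, from 1.05 to 0.29 CPM (adjusted p = 0.0294). DESeq2 called 0 of the leukocyte list lower there. The part of these levels in the members' results was not tested.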

How the data were processed

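Messenger RNA of 6 libraries was sequenced after TRIzol lysis and KAPA stranded library preparation, per the labels' protocols. The authors deposited raw counts per gene symbol; alignment with STAR to hg38 and counting with featureCounts are named in the submitters' processing notes, and versions, settings and annotation are not given in the sources used here. Columns were matched to samples by the column names in the labels. Counts were tested with edgeR 4.0.16 in R 4.3.3 (quasi-likelihood, TMM, robust, one model of the 6 libraries that leaves 3 residual degrees of freedom) after the default filter with a minimum count of 10. All tests were two-sided, with p-values adjusted by Benjamini-Hochberg over the 20676 genes of each comparison and a threshold of 0.05. SEs come from the test statistic and intervals are 95%. Positions, exon lengths and GC contents are from GENCODE 29 on GRCh38, counted from 1.

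The members and lists were chosen with earlier results of these data known. All 8 members were named whatever their p, with up to 4 called genes per list and comparison by size of fold change, and the 5 genes most like the member of each family with the largest range. In the companion lists FKBP10, ATP7A and the collagen prolyl hydroxylases were named outside this rule. The fit was tested on simulated counts. Replicates were not copies: within each group a chi-square test over genes gave 13.3 to 33.2 per degree of freedom. Alternatives were RLE normalization, no filter, DESeq2 1.42.0, only the 4 libraries compared, the replicate number as a block, length and GC offsets (mgcv 1.9.3), and leaving out each library. One gene that the naming rule picks is not reported here.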

Additional observations from a re-analysis of the deposited data

How the results depend on the processing

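With 2 libraries per group the number of members called depended on single libraries, while every called fold change kept its direction under all 12 alternatives. Leaving out 1 library at a time gave 0 to 5 members called for low flow against static (1 as reported), 0 to 6 for high flow against static (3 as reported) and 0 to 4 for high flow against low flow (0 as reported); the member called lower there was LOX, without low flow replicate 1 (adjusted p = 0.0427), and those called without low flow replicate 2 were LOX, LOXL2, LOXL4 and PLOD1, all higher. Without the expression filter 2, 5 and 1 members were called in these comparisons. With only the 4 libraries compared 6 were called for high flow against static. The share of all genes called under each alternative is not given here. These member counts therefore cannot be told apart from a general change in calls, and the cause was not tested. With the replicate block 0 members were called for low flow against static, where LOXL4 had an adjusted p of 0.0635, and the block changed no other member call. Of the named companion calls it ended those of SERPINH1 (adjusted p = 0.0632) and PCOLCE2 (0.0626) for high flow against static, of PCOLCE2 for low flow against static and of ANGPTL4 between the flow rates. The replicate numbers did not pair the libraries: correlations of same-numbered deviations from the group means were -0.14, -0.05 and 0.14 between the 3 pairs of groups. Values that changed sign were all of members not called in that comparison as reported. For low flow against static, leaving out 1 library at a time gave LOXL2 -0.0181 to 0.358 and PLOD3 -0.0998 to 0.0310 (0.0220 without low flow replicate 1). For high flow against static, PLOD3 was -0.117 with the length and GC offsets. Between the flow rates LOX was 0.00162 with the replicate block, 0.0665 with the offsets and -0.452 to 0.527 on leaving out 1 library (0.527 without low flow replicate 2, adjusted p = 0.0126, and 0.0417 without high flow replicate 2). LOXL1 was -0.0524 with the offsets, and PLOD2 ran from -0.0849 to 0.197 on leaving out 1 library. The static libraries are the shallowest, and LOXL3 and LOXL4 rest there on 32 to 58 counts. DESeq2 gave no adjusted p for LOXL3 in low flow against static.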
